A study of Arabidopsis thaliana with 3 samples.

Results

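The 34 genes described here encode the enzymes and 2 regulators of tetrapyrrole metabolism in Arabidopsis thaliana, the pathway that makes and breaks down chlorophyll and heme. They were chosen by gene identifier from the pathway's known steps, with no threshold on their measured values, and all 34 were found among the 37336 genes of the count table. The 3 libraries, replicates 1 to 3, were all of 1 group: untreated wild-type whole seedlings of the Col-0 ecotype, 7 days of age, grown at 21 °C with 16 h of light and 8 h of dark on MS agar medium with sucrose. No other genotype or condition was analysed here, so the comparisons are between genes and between these libraries. Nothing in the labels ties the replicates to separate plants or cultures, so the p-values speak only of how far these samples differ, and that may be technical variation.

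Tetrapyrroles are built in the plastid from glutamate. A shared set of steps leads through aminolevulinic acid to protoporphyrin IX, into which magnesium chelatase inserts magnesium for chlorophyll and ferrochelatase inserts iron for heme. Heme is also the source of the bilin that phytochromes carry as their light-absorbing group. Free intermediates of the pathway are harmful in light, and both its entry step and magnesium chelatase are known points of control. When leaves age or chlorophyll turns over, a separate set of enzymes removes magnesium and phytol and opens the ring.

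The libraries held 32967215, 31761722 and 27069921 counts in replicates 1, 2 and 3. Levels are given as CPM, counts scaled to a common library size with TMM adjustment, and levels of different genes are compared only as CPM per kb of exon. Detection, meaning at least 1 CPM in all 3 libraries, held for 33 of the 34 genes, against 45.7% of the whole table. Shares among protein-coding genes were higher, at 58.7% of those with no exon base shared with another gene. For those with some but under 30% shared it was 78.7%. Green-tissue markers matched the label, with all 7 detected and a summed level of 68860.5, 72391 and 71026 CPM in replicates 1, 2 and 3. Root markers differed between libraries: the 10 genes summed to 68.3, 178 and 177 CPM, 8 of them were lowest in replicate 1 while AT1G62500, annotated in the lipid-transfer protein superfamily, was highest there, and the nitrate transporter gene NRT2.1 had 0 counts in every library. Of the 7 root markers tested, 5 varied more than genes at similar levels (edgeR test of fit, Benjamini-Hochberg adjusted p under 0.05), against 2.02% of all genes tested, among them IRT1, the root iron transporter gene, at 1.43, 31.2 and 25.4 CPM. Seed and embryo markers were highest in replicate 1, with sums of 114, 5.88 and 34.9 CPM over 4 genes, of which LEC1 had 0 counts throughout. Most of this came from CRA1, at 104.5, 5.46 and 30.9 CPM, so that replicates 2 and 3 also differed. CRA1 and OLEO1, the tested genes of this list, passed the edgeR test of fit at the same threshold, against 2.02% of all. The senescent-leaf markers summed to 160.0, 112 and 119 CPM, nearly all of it from SEN1, and SAG12, the defining gene of leaf senescence, had 0 counts in every library. The other markers of this list were low, SAG13 at 3.35, 0.588 and 0.192 CPM and WRKY53 at 1.43, 0.883 and 0.768 CPM. SEN1, SAG13 and WRKY53 were each highest in replicate 1. The part of tissue makeup in the differences between libraries was not tested, and in whole seedlings fewer cells of a type cannot be told apart from less RNA per cell.

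The 34 genes together took 0.890% ± 0.0693 of all counts (SD, n = 3). The 12 genes of the chlorophyll branch held most of this, with 0.654% ± 0.0549 of all counts, and the 11 genes of the shared steps held 0.190% ± 0.0110. The 4 genes of the heme and bilin branch held 0.0179% ± 0.00147 and the 5 breakdown genes 0.0159% ± 0.00146. Per kb, the median level was 126 CPM in the chlorophyll branch, 83.6 CPM in the shared steps, 26.7 CPM in the heme and bilin branch and 16.5 CPM among the breakdown genes. Over all 34 genes the median was 72.5 CPM per kb, beside 7.64 CPM per kb over the 19016 genes that passed the filter for testing. At 100 CPM per kb or more in each library stood 8 of the 34 genes, against 4.68% of all detected genes. From the highest to the lowest detected gene, CRD1 to PORA, mean levels per kb spanned 861-fold.

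**Figure D1:**
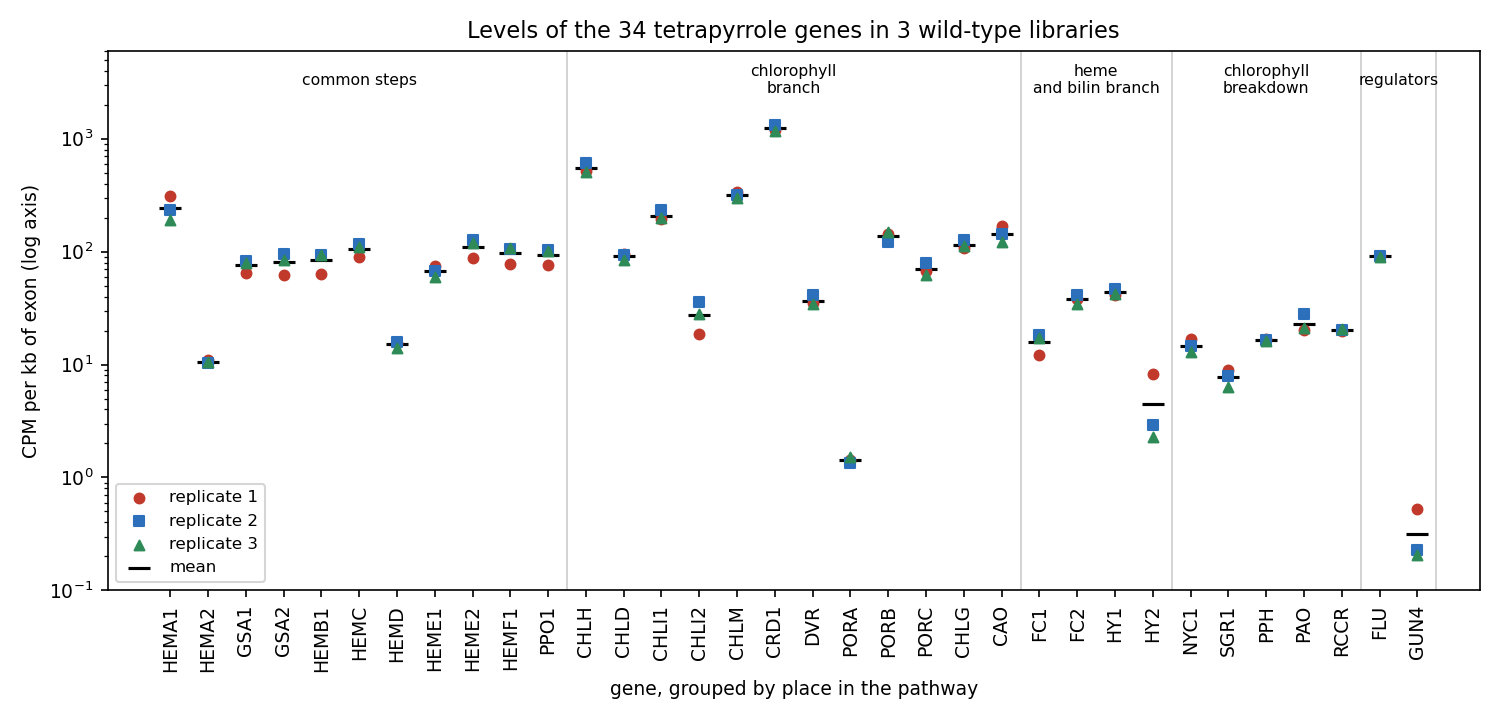
Level of each of the 34 genes in CPM per kb of exon (log axis), with 1 marker per library and a bar at the mean of the 3 libraries, grouped by place in the pathway. CRD1 and CHLH stand highest, PORA and GUN4 lowest, and HY2 is the detected gene whose 3 libraries lie farthest apart.

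The shared steps begin with glutamyl-tRNA reductase, the rate-limiting and light-regulated enzyme of the pathway, and 1 of its genes carried nearly all of the message. HEMA1 (AT1G58290, chromosome 1, 21623700 to 21626402) stood at 712, 538 and 441 CPM in replicates 1, 2 and 3. HEMA2 (AT1G09940), described in Arabidopsis as the isoform of roots and stress, stood at 24, 22.5 and 23.3 CPM. The libraries of the 2 genes did not overlap, and the log2 ratio of HEMA1 to HEMA2, taken per kb with a pseudocount of 0.1 as in all ratios here, was 4.49 ± 0.33 (SD, n = 3), or 22.4-fold. HEMA1 made up 95.6% ± 0.956 of the summed level of the family per kb, while the third gene, HEMA3, had 11, 9 and 11 counts. FLU (AT3G14110), whose product binds glutamyl-tRNA reductase and holds it back in the dark, stood at 117, 116 and 114 CPM. Its coefficient of variation was the lowest of the 34 genes with TMM scaling. Replicate 1 of FLU lay above the mean of the others by 0.03 on the log2 scale, and by 0.19 with total counts. HEMA1 exceeded FLU 3.35-, 2.56- and 2.14-fold per kb in replicates 1, 2 and 3.

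Glutamate-1-semialdehyde aminomutase, which completes aminolevulinic acid, had its message divided about equally between both of its genes. GSA1 (AT5G63570) stood at 126, 161 and 157 CPM and GSA2 (AT3G48730) at 109, 167 and 149.9 CPM. Their ranges overlapped, and GSA2 over GSA1 was −0.07, 0.20 and 0.08 on the log2 scale per kb, a mean of 0.07 ± 0.14 (SD, n = 3) that is smaller than its spread. The level of the whole step, 156 ± 26.4 CPM per kb, was below the 255 ± 59.6 CPM per kb of the HEMA step.

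Of the genes between aminolevulinic acid and protoporphyrin IX, HEMB1, HEMC, HEMF1 and PPO1 stood at similar levels and HEMD lower. HEMB1 (AT1G69740), which joins 2 aminolevulinic acid molecules into porphobilinogen, stood at 83.6 ± 17.2 CPM per kb (SD, n = 3). HEMC (AT5G08280), which links porphobilinogens into a chain, stood at 106 ± 13.8 CPM per kb. HEMF1 (AT1G03475; LIN2 in RefSeq), the coproporphyrinogen III oxidase gene, was at 96.7 ± 16.4 CPM per kb and PPO1 (AT4G01690; PPOX in RefSeq), the protoporphyrinogen oxidase gene, at 93.2 ± 15.2 CPM per kb. None of these 4 differed from its neighbours in the order of levels beyond the range of the 3 libraries. Within each of the 3 libraries, though, HEMC lay above HEMF1 and HEMF1 above PPO1. HEMD (AT2G26540), the uroporphyrinogen III synthase gene that closes the chain into a ring, stood at 26.4, 27 and 24.1 CPM. Its level was 15.1 ± 0.896 CPM per kb, and its range lay below those of HEMB1, HEMC, HEMF1 and PPO1.

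Both genes of uroporphyrinogen decarboxylase, which trims the side chains of the ring, were well detected. HEME2 (AT2G40490) stood at 136, 196 and 184 CPM and HEME1 (AT3G14930) at 153, 137 and 121 CPM, so that HEME1 was the higher in replicate 1 and HEME2 in the others before correction for length. Per kb HEME2 was higher in each library, 1.16-fold in replicate 1, 1.88-fold in replicate 2 and more in replicate 3 (mean log2 ratio 0.71 ± 0.43, SD, n = 3). The second genes of 3 other steps were low. HEMB2 had 0, 5 and 2 counts. HEMF2 stood at 7.46 ± 4.79 CPM per kb, high in replicate 1, and at 4.70 CPM per kb without that library. PPO2, the second protoporphyrinogen oxidase gene, stood at 10.5 ± 0.983 CPM per kb, 8.75-fold under PPO1.

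Magnesium chelatase, which commits protoporphyrin IX to chlorophyll, has 3 kinds of subunit, and their messages were not equal. CHLH (AT5G13630, chromosome 5, 4387307 to 4392429; GUN5 in RefSeq), the porphyrin-binding subunit, stood at 2465, 2905 and 2410.0 CPM. CHLI1 (AT4G18480), the main ATPase subunit, stood at 310.1, 375 and 319 CPM, and CHLD (AT1G08520; ALB1 in RefSeq), the subunit that bridges the others, at 253, 247 and 225 CPM. Per kb CHLH was the second highest of the 34 genes with 545 ± 57 CPM, CHLI1 the fifth with 208 ± 22 CPM and CHLD the thirteenth with 91.4 ± 5.61 CPM (SD, n = 3). The libraries of the 3 genes did not overlap: CHLH exceeded CHLD by 2.57 ± 0.13 and CHLI1 exceeded CHLD by 1.18 ± 0.16 on the log2 scale. CHLI2 (AT5G45930), the minor ATPase gene, stood at 28.8, 54.3 and 43.1 CPM, lowest in replicate 1, and made up 11.5% ± 2.30 of the CHLI message per kb.

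GUN4 (AT3G59400), whose product binds porphyrins and stimulates magnesium chelatase, was the 1 gene not detected. It had 24, 9 and 7 counts in replicates 1, 2 and 3, or 0.675, 0.294 and 0.269 CPM, and stood at 0.318 ± 0.175 CPM per kb (SD, n = 3). Its count is uncertain, because 946 of its 1296 exon bases (73.0%) also lie in an exon of GCN2 (AT3G59410, chromosome 3, 21948851 to 21959410), a protein kinase gene on the opposite strand. That exon belongs to 1 of the 5 annotated GCN2 transcripts and covers all 798 coding bases of GUN4. GCN2 itself stood at 26.2, 15.9 and 15.2 CPM. If all its counts came from the 350 unshared bases, GUN4 would stand at 1.93, 0.841 and 0.768 CPM per kb. Among all genes counted, 755 protein-coding ones had 70% or more of their exon bases shared with genes of the opposite strand only, and 23 of them (3.05%) were detected, beside 58.7% of the 19821 protein-coding genes with no shared exon base. Whether reads of GUN4 were left uncounted was not tested, and the sources used here do not give the strand setting of the counting. The other 33 genes shared at most 12.9% of their exon bases with another gene, and 17 shared none.

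**Figure D2:**
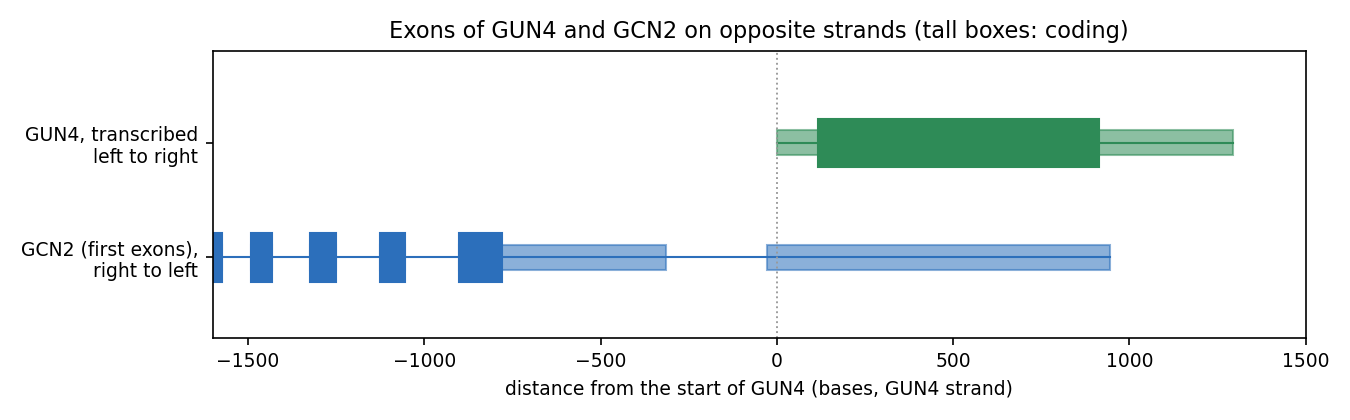
Exons of GUN4 and of the first part of GCN2 as annotated in RefSeq, drawn to scale by distance in bases from the start of GUN4; tall boxes are coding and low boxes are not. An exon of GCN2 that is not coding runs across the whole coding part of GUN4 and covers 946 of its 1296 exon bases.

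After magnesium chelatase, CHLM and CRD1 were among the most abundant messages. CHLM (AT4G25080), the methyltransferase that acts on magnesium protoporphyrin, stood at 577, 540.4 and 514 CPM, or 319 ± 18.6 CPM per kb (SD, n = 3). CRD1 (AT3G56940, chromosome 3, 21076505 to 21078443), also called CHL27, is the diiron subunit of the cyclase that closes the fifth ring of chlorophyll. It stood at 1779, 1991 and 1746 CPM, or 1231 ± 88.9 CPM per kb, which was rank 51 of 17050 detected genes and the highest level of the 34. Its lowest library lay above the highest library of CHLH, the next gene in order. DVR (AT5G18660; PCB2 in RefSeq), which reduces the vinyl side group of divinyl intermediates, was lower at 55.6, 65.0 and 54.2 CPM, or 36.6 ± 3.69 CPM per kb. Chlorophyll synthase CHLG (AT3G51820; G4 in RefSeq), which adds the phytol tail, stood at 185, 219 and 192 CPM. CAO (AT1G44446; CH1 in RefSeq), the oxygenase that converts chlorophyll a to b, stood at 391, 334 and 280.4 CPM, or 145 ± 23.8 CPM per kb.

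The light-dependent reduction of protochlorophyllide is carried out by 3 related enzymes, and in these seedlings PORB and PORC supplied nearly all of their message. PORA (AT5G54190), known as the form of dark-grown seedlings whose message falls on illumination, stood at 2.36, 2.22 and 2.53 CPM. PORB (AT4G27440), which is expressed in dark and light, stood at 233, 199 and 245 CPM, and PORC (AT1G03630; POR C in RefSeq), the form of light-grown tissue, at 120.3, 141 and 111 CPM. PORA was thus far below both others in every library, and PORB lay above PORC in each. Per kb PORB exceeded PORA by 6.49 ± 0.08 on the log2 scale (89.7-fold), PORC exceeded PORA by 5.50 ± 0.26 (45.3-fold), and PORB exceeded PORC by 0.99 ± 0.33 (SD, n = 3 each). Shares of the summed level per kb were 0.686% ± 0.0282 for PORA, 65.9% ± 5.17 for PORB and 33.4% ± 5.19 for PORC. The sum itself, 211, 202 and 213 CPM per kb, varied less between libraries than either PORB or PORC.

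How far such close copies can be told apart depends on their sequence. Stretches of 90 coding bases were compared only where they lay within an exon of each gene and aligned without gaps. Stretches across exon borders or gaps were not searched and may be more alike. Among those compared, the stretch in which PORA is most like PORB is shown, with the aligned bases of PORC. It lies in TAIR10.1 at chr5:21992157-21992246 on the minus strand for PORA, chr4:13726074-13726163 on the plus strand for PORB and chr1:908223-908312 on the plus strand for PORC. Capitals mark bases that differ from PORA.
PORA: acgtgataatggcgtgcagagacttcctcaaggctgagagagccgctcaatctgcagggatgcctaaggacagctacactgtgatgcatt
PORB: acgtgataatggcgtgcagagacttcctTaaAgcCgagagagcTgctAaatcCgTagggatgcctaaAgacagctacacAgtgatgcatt
PORC: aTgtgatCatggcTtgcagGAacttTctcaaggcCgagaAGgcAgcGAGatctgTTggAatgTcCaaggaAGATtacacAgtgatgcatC
The bases are from the TAIR10.1 genome of RefSeq. PORB differed from PORA at 9 and PORC at 24 of the 90 bases. Over the whole coding sequence PORA and PORB were 83.3% identical, with a longest identical run of 44 bases, and no run of 50 bases was shared. PORA was 73.9% identical to PORC. The coding sequences of HEMA1 and HEMA2 (83.0% identical, longest run 49 bases), of GSA1 and GSA2 (83.5%, 38 bases) and of CHLI1 and CHLI2 (82.0%, 44 bases) likewise shared no run of 50 bases. Neither the read length nor the treatment of reads that match several genes is stated in the sources used here.

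Since PORB over PORA was the largest ratio among the 13 plotted pairs of related genes, their upstream sequences are also set side by side. The 185 bases before the annotated start of each gene are shown, at chr5:21992815-21992999 on the minus strand for PORA and chr4:13725361-13725545 on the plus strand for PORB. Capitals mark the motifs searched for, on both strands: AAAATATCT (the evening element of clock-regulated genes) in each, GATAAG (the I-box, here on the opposite strand) in PORA and CCAATC in PORB.
PORA: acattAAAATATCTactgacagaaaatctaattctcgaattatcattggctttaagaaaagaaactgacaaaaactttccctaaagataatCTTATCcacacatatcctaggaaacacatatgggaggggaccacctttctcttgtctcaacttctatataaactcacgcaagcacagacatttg
PORB: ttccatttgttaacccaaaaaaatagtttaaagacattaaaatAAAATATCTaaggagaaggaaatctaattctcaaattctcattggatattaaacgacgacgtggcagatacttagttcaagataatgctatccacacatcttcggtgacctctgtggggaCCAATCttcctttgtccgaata
The third promoter with AAAATATCT was that of NYC1, so it was found in 3 of the 34 windows that run from 250 bases before to 50 bases after the start, beside 2.82% of 27443 such windows of protein-coding genes. The G-box, CACGTG, was found in 6 of the 34 windows (HEMD, CRD1, CAO, FC2, HY2 and NYC1), beside 7.68% of all windows. GATAAG was found in 6, beside 14.6% of all, and CCAATC in 6, beside 12.3% of all. In the 250 bases before the start alone GATAAG was found in 2 genes (5.88%), beside 12.3% of all, and CCAATC in 3 (8.82%), beside 10.2%. Both shares were then below those of all windows, whereas in the longer window both were above. CACGTG was found before the start in 5 genes, beside 6.49% of all, and AAAATATCT in 3, beside 2.36%. HEMA1 and HEMA2 held none of the 4 motifs in either window. PORB held CCAATC at a second place, upstream of the stretch shown. These matches describe the letters only.

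By median level per kb, messages of the heme and bilin branch stood below those of the chlorophyll branch. Single genes crossed over: HY1 and FC2 had higher means than DVR, CHLI2 and PORA, with FC2 and DVR overlapping in range. FC2 (AT2G30390), the main ferrochelatase gene of green tissue, stood at 76.2, 83.5 and 68.7 CPM, and FC1 (AT5G26030), the form also expressed in roots, at 24.8, 37.2 and 35.4 CPM. Their libraries did not overlap, and FC2 exceeded FC1 by 1.27 ± 0.33 on the log2 scale per kb (SD, n = 3). At the branch point, CHLH exceeded FC2 13.7-, 14.7- and 14.9-fold per kb in replicates 1, 2 and 3 (log2 ratio 3.85 ± 0.06). HY1 (AT2G26670; TED4 in RefSeq), the heme oxygenase that opens heme into biliverdin, stood at 58.4, 66.2 and 60.2 CPM. Its 43.5 ± 2.90 CPM per kb was the highest of the 4 heme and bilin genes. Among its relatives, HO2 stood at 24.8, 14.2 and 12.8 CPM, HO4 had 8, 1 and 2 counts and HO3 had 0, 1 and 0 counts.

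HY2 (AT3G09150, chromosome 3, 2803528 to 2805922), which makes the phytochrome bilin from biliverdin, varied the most between libraries of the 33 detected genes. It had 575, 178 and 117 counts, or 16.2, 5.82 and 4.49 CPM, high in replicate 1 and low in the other libraries. Replicate 1 exceeded the mean of replicates 2 and 3 by 1.57 on the log2 scale, whereas replicates 2 and 3 differed by 0.34. This spread did not pass the edgeR test of fit across genes (unadjusted p = 0.0218, Benjamini-Hochberg adjusted p = 0.415 over 19016 genes). Its level of 4.46 CPM per kb over all libraries was 2.60 CPM per kb without replicate 1, so that 1 library sets it.

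The breakdown genes were all detected at modest levels, from 7.77 to 23 CPM per kb. PAO (AT3G44880; ACD1 in RefSeq), the oxygenase that opens the chlorophyll ring, was highest at 40.8, 56.1 and 42.4 CPM. RCCR (AT4G37000; ACD2 in RefSeq), which reduces the red product of that step, stood at 29.7, 30.4 and 31.4 CPM, and PPH (AT5G13800), which removes phytol from pheophytin, at 38.7, 37.7 and 37.0 CPM. These 2 genes and FLU had the lowest coefficients of variation of the 34 with TMM scaling. NYC1 (AT4G13250), a chlorophyll b reductase, stood at 14.7 ± 1.84 CPM per kb and its partner NOL at 22.1 ± 4.06 CPM per kb (SD, n = 3). Per kb NYC1 was below NOL in 3 of 3 libraries, though only 0.952-fold in replicate 1. Before correction for length NYC1 was the higher in replicate 1, at 34.4 CPM beside 24.5 CPM for NOL. SGR1 (AT4G22920; NYE1 in RefSeq), the magnesium dechelatase gene known to rise sharply in senescence, was lowest at 15.8, 14.1 and 11.2 CPM, and exceeded SGR2, with 28, 12 and 11 counts, by 3.99 ± 0.32 on the log2 scale per kb.

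**Figure D3:**
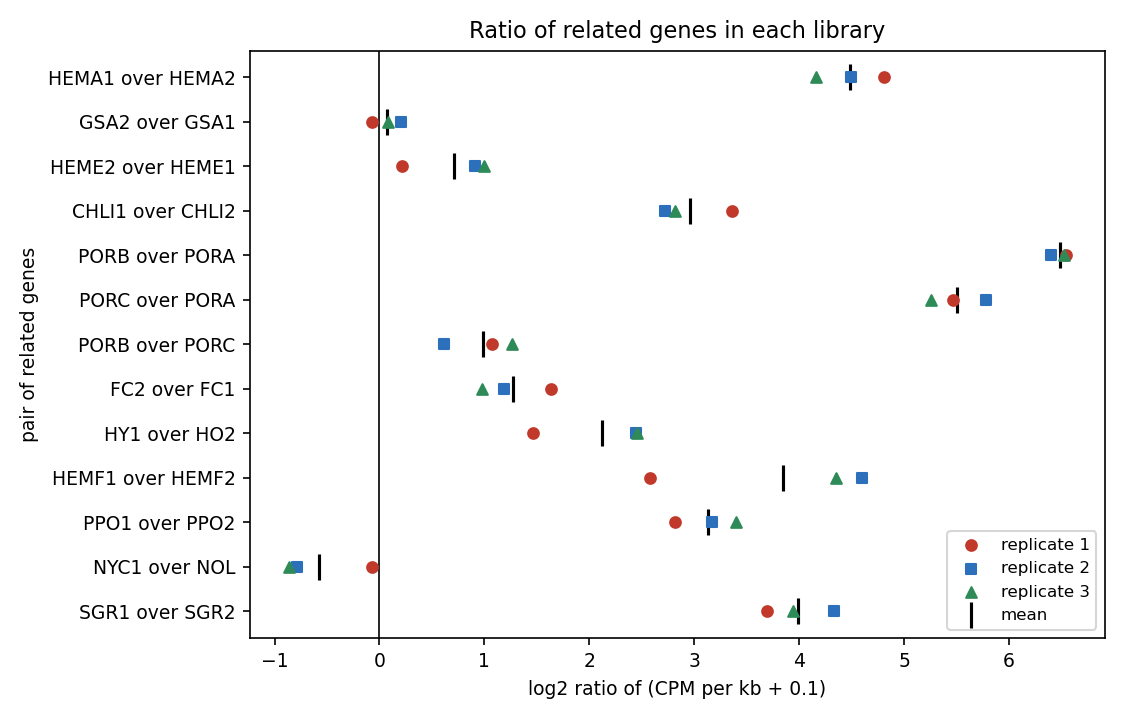
Log2 ratio per kb (pseudocount 0.1) for 13 pairs of related genes of the same step, with 1 marker per library and a bar at the mean of the 3 libraries; the vertical line marks equal levels. HEMB1 over HEMB2 and HY1 over HO3, whose second gene had at most 5 counts, are not drawn. Of the pairs drawn PORB over PORA has the highest ratio, at 6.40 to 6.54, and GSA2 over GSA1 is the 1 pair on both sides of the line.

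Of 20 pairs of related or partner genes compared per kb, 19 kept their direction in 3 of 3 libraries, GSA2 over GSA1 being the other. The pairs were chosen with earlier results of these data known, and no share over other gene pairs was taken. Some lower genes were near 0, with at most 1 count in a library for HO3, 5 for HEMB2 and 24 for GUN4. An exact permutation test that flips signs, two-sided, has p = 0.25 as its smallest value with 3 libraries, so none of the pairs could reach 0.05. After Benjamini-Hochberg adjustment over the 20 pairs the exact p ran from 0.263 to 0.5. In the order of levels per kb, the ranges of neighbouring genes over the 3 libraries overlapped in 24 of 33 cases. Overlap of ranges ignores that both genes were measured in the same libraries. Within libraries, CHLM lay above HEMA1, HEMC above HEMF1, HEMF1 above PPO1 and HY1 above FC2 in 3 of 3. The same held for DVR above CHLI2, PAO above RCCR and SGR1 above HY2. The 9 breaks with no overlap set CRD1 above CHLH, CHLH above CHLM, CHLI1 above CAO, HEME1 above HY1, RCCR above PPH, NYC1 above HEMA2, HEMA2 above SGR1, HY2 above PORA and PORA above GUN4. The last of these rests on the uncertain level of GUN4, which over its unshared bases alone would overlap PORA in range. The 14 genes from CAO to HEME1 formed 1 continuous run in which the range of each gene overlapped that of the next.

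Variation between libraries was tested across 19016 genes with the edgeR test of fit, which asks whether a gene varies more than genes of like abundance. None of the 33 tested genes passed (Benjamini-Hochberg adjusted p under 0.05), against 2.02% of all genes tested. The number of all genes that passed, 384, depended on the libraries: leaving out replicate 1 gave 60, leaving out replicate 2 gave 119 and leaving out replicate 3 gave 129, and none of the 34 was among them in any of these fits. The biological coefficient of variation estimated by edgeR was 0.320 over the 3 libraries and 0.0950 without replicate 1, so with all 3 libraries a gene had to vary widely to pass. At an unadjusted p under 0.05, 1 gene passed, HY2, against 7.45% of all genes. DESeq2 marked 0 of the 33 as dispersion outliers, against 23 of all 19016 genes tested. The coefficient of variation of CPM over the libraries had a median of 11.8% over the 33 detected genes, beside 17.9% over all detected genes, and ran from 1.53% for FLU to 72.4% for HY2. Replicate 1 was over 2-fold above the mean of replicates 2 and 3 for 1 gene, HY2, against 6.97% of all genes tested, and over 2-fold below it for 0, against 6.64%. Replicates 2 and 3 were over 2-fold apart for 0 of the 33, against 0.294% of all. The coefficients of variation and the 2-fold shares were not set against genes of like abundance. Median levels were 72.5 CPM per kb over the 34 genes and 7.64 CPM per kb over the genes tested. Whether the set varied less than genes at its own level was therefore not tested.

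Replicate 1 was the lowest library for 14 of the 33 tested genes of the whole set, against 43.8% of all genes tested. It was highest for 11 of the 33, against 45.4% of all. By branch it was lowest for 7 of the 11 genes of the shared steps and 3 of the 12 of the chlorophyll branch. The heme and bilin branch had 2 of 4 and the breakdown genes 2 of 5. The 7 genes of the shared steps were GSA1, GSA2, HEMB1, HEMC, HEME2, HEMF1 and PPO1, with log2 differences of replicate 1 from the mean of the others between −0.55 for HEMB1 and −0.33 for HEMC, and still between −0.39 and −0.16 with libraries scaled by total counts. Replicates 2 and 3 differed by at most 0.16 in the same genes. Because these genes were picked for being lowest in replicate 1, the negative sign with TMM scaling was fixed by that choice. HEMA1 lay on the other side, at 0.55, and so did HEME1, at 0.25, while HEMA2 and HEMD lay at 0.06 and 0.05. Over the 33 genes the median difference was −0.06, beside 0.01 over all genes tested, and it turned to 0.11 with total counts. CHLI2 had the lowest value, −0.74. The lower genes of related pairs had values on both sides of 0, among them FC1 at −0.54, PORA at −0.01, PPO2 at 0.04, HO2 at 0.86 and HEMF2 at 1.42. With total counts the median of all genes tested shifted by 0.15. The 7 green-tissue markers had a median difference of −0.33, with LHCB2.1 at −0.74 and CAB1 at 0.22, and the 7 tested root markers one of −3.57. No single gene of this set passed the edgeR test, and the part of tissue makeup was not tested.

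**Figure D4:**
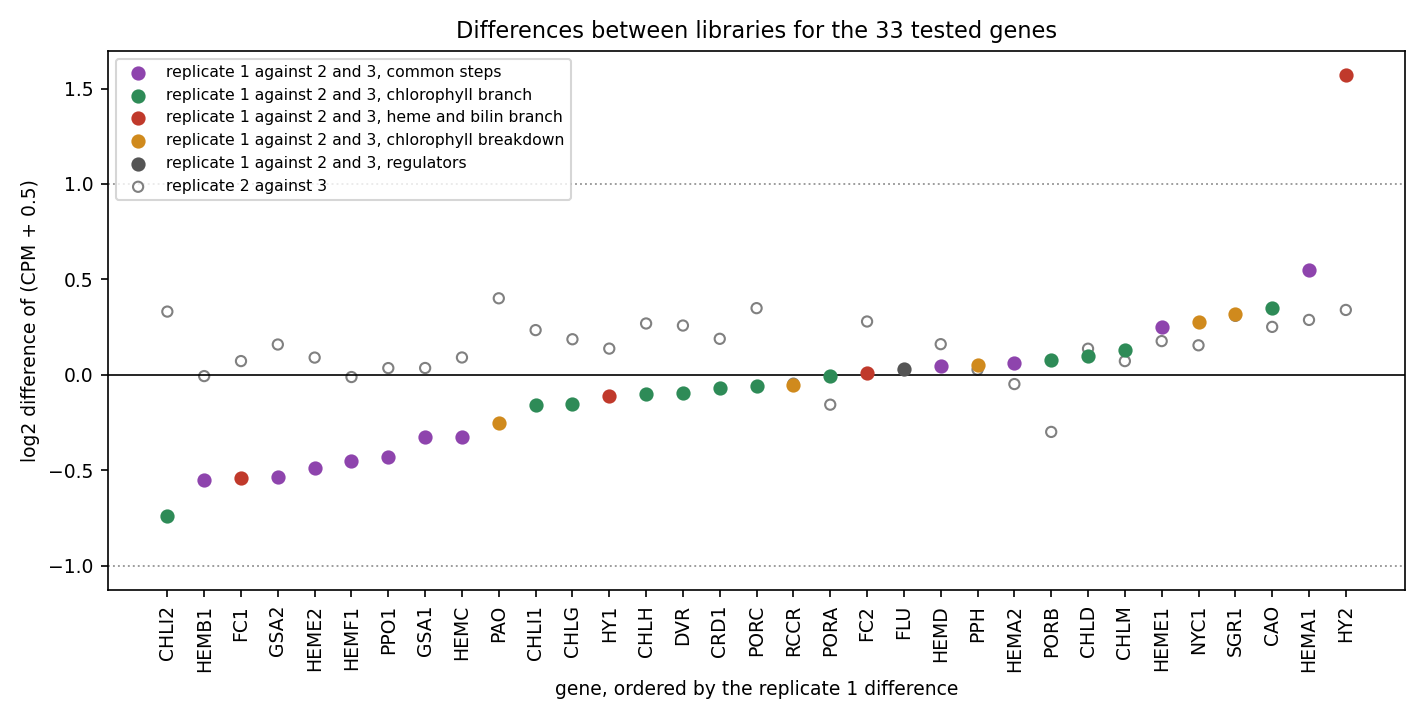
Log2 difference of (CPM + 0.5) between replicate 1 and the mean of replicates 2 and 3 (filled points, coloured by place in the pathway) and between replicates 2 and 3 (open points) for the 33 tested genes. HY2 is the 1 gene past the dotted lines at 2-fold, at 1.57, and most genes of the shared steps lie between −0.55 and −0.33.

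Other genes of the pathway, 28 in all, and 10 regulators were read beside the 34. Of these, 22 and 8 were detected, against 45.7% of the whole table. In the edgeR test none of the 23 tested pathway genes and none of the 10 tested regulators passed after Benjamini-Hochberg adjustment. Of all genes tested 2.02% passed, so 0 in lists this short says little. DESeq2 marked 0 in both lists, against 23 of all 19016 genes tested. At an unadjusted p under 0.05 stood 1 gene of each list, against 7.45% of all genes tested. HEMF2 had 24.1, 7.94 and 9.52 CPM (edgeR, unadjusted p = 0.0264, adjusted p = 0.468). NAC046, a senescence regulator named after its values were seen, had 0.590, 3.01 and 2.50 CPM (edgeR, unadjusted p = 0.0364, adjusted p = 0.574). CHLP (AT1G74470; 16.2% of its exon bases shared with another gene), which reduces the geranylgeranyl tail of chlorophyll to phytol, reached 864 ± 89.5 CPM per kb (SD, n = 3), between CRD1 and CHLH. LIL3:2 and LIL3:1, light-harvesting-like proteins known to bind that reductase, stood at 231 ± 23 and 75.0 ± 2.78 CPM per kb, LIL3:1 with 28.2% of its exon bases shared. AT2G35260, annotated as a CAAX protease self-immunity protein, stood at 224 ± 8.86 CPM per kb, and AT5G58250, the YCF54 protein that assists the cyclase, at 106 ± 3.11 CPM per kb with 18.7% shared. AT1G44000, a STAY-GREEN-like gene, stood at 135 ± 23.7 CPM per kb, above SGR1 in each library. Among the regulators GLK2 (AT5G44190) and GLK1 (AT2G20570; GPRI1 in RefSeq), transcription factors that activate chlorophyll and antenna genes, led at 160.2 ± 22.6 and 114 ± 4.85 CPM per kb. The 4 lowest were HEMA3, HO4, HEMB2 and HO3, all under 0.2 CPM per kb.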

How the data were processed

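Polyadenylated RNA of 3 wild-type seedling samples was sequenced. The authors deposited unnormalized gene counts, 1 column for each library, and the table had 0 further columns. Tools named by the submitters' processing notes, without role or order, were featureCounts 1.6.1, HISAT2 2.1.0 and DESeq2, with the build TAIR10. Not given in the sources used here were the annotation, strand setting and filters. Symbols, exons and sequences came from RefSeq TAIR10.1, to which 37051 of 37336 identifiers matched.

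CPM used TMM library sizes (edgeR 4.0.16, R 4.3.3). At a count of 0 the limit is 3 counts, which is 0.0843 to 0.115 CPM per library and covers counting error only. Differences between libraries used log2(CPM + 0.5), and ratios between genes log2(CPM per kb + 0.1). Variation was tested with the goodness-of-fit test of edgeR against the dispersion trend, fitted to 1 group after filterByExpr, Benjamini-Hochberg adjusted at 0.05 over 19016 genes. On simulated data it recovered most large changes in 1 library and a minority of smaller ones, so a gene that did not pass is not shown to be stable. Ratios were tested by exact sign-flip permutation. DESeq2 1.42.0 gave alternative size factors and dispersion outliers. Python 3.11.15 and Biopython 1.88 were used for the sequences. All 34 genes could be named, as could listed pathway genes among the 8 highest and 4 lowest per kb, any that passed the test and any in a pair. The 34 genes were defined by pathway step, with no threshold on their values, but this set, the lists and the pairs were chosen with earlier results of these data known.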

Additional observations from a re-analysis of the deposited data

How the results depend on the processing

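The number of detected genes was 33 at thresholds of 0.5 and 2 CPM, under both other library scalings and with each replicate left out. The count of genes that varied beyond genes of like abundance was 0 in edgeR with DESeq2 size factors, no filter, a common dispersion or each replicate left out, and 0 with the DESeq2 outlier flag. The median difference between libraries ran from -0.16 to 0.03 with replicate 3 or 2 left out. Without length correction the median log2 level was 7.02 in place of 6.17. With libraries scaled by total counts the median difference of replicate 1 from the others was 0.11 in place of -0.06, and the median of all genes tested shifted by 0.15. Of 100 alternative values of the 20 ratios, 99 kept their direction. Without length correction GSA2 over GSA1 turned to -0.0735, and NYC1 over NOL kept its sign but moved from -0.575 to -0.0158. In the 250 bases before the start only, GATAAG was found in 2 genes and CCAATC in 3, in place of 6 each. Of all windows 12.3% then held GATAAG, in place of 14.6%, and 10.2% held CCAATC, in place of 12.3%. Of 136 alternative levels of single genes, chosen after seeing the data, 1 moved by over 1.5-fold, that of HY2 without replicate 1. No paired comparison between groups was possible because the libraries form 1 group, while the ratios between genes were taken within each library. Of 33 such levels of 11 other pathway genes and regulators, 1 did, that of HEMF2 without replicate 1.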
